A study of Mus musculus with 9 samples.

Results

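The comparison described here sets tumour-derived SCCVII lines from non-irradiated stroma (NIR) against the parental SCCVII line (PA). Its members were chosen by sample title: 3 arrays titled Non-irradiated (NIR1 to NIR3) and 3 titled Parental (PA1 to PA3), 6 of the 9 arrays of the series. SCCVII is a mouse tumour line that arose spontaneously as an oral squamous cell carcinoma in CH3 mice. PA cells were kept in culture under standard conditions. NIR lines were recovered from tumours that PA cells formed in stroma that had not been irradiated, and the submitters describe both those tumours and the lines as poorly invasive and poorly metastatic. The other 3 arrays (IR) hold lines whose tumours grew in pre-irradiated stroma; they served here only to estimate the spread between arrays. Growth in an animal, that stroma and the return to culture all separate NIR from PA and cannot be told apart. The design text calls the samples independent, but no label says what separated the 3 arrays of a group (tumour, line or culture dish). The p-values rest on the spread between arrays within NIR, PA and IR, pooled and moderated over all genes. This spread may be technical, and a wide spread in IR can keep a gene from passing.

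Cells that sense interferon activate a complex that holds STAT2 and IRF9 and binds response elements in the promoters of interferon-stimulated genes. The products block viral replication, sense foreign nucleic acids, load peptides onto MHC class I molecules and, as in the case of Irf7, raise the output of the pathway itself. Many tumour lines hold these genes at a raised level without infection. Carcinoma cells also make and remodel extracellular matrix through proteases, collagens and proteoglycans, and respond to growth factors through immediate early genes such as Egr1.

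Levels are log2 RMA values, on which a difference of 1 is a 2-fold change. They were tested for 18194 genes, each read by its brightest probe set. The median probe set lay at 4.49, and levels near or under it are called near background below. The number of arrays limits the precision. Across all genes, the standard deviation of the log2 difference between array pairs was 0.142 to 0.184 within PA and 0.179 to 0.230 within NIR. It was 0.226 to 0.281 between NIR1 or NIR2 and the PA arrays and 0.182 to 0.208 between NIR3 and the PA arrays, so NIR3 lay nearest to PA.

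The label of a squamous carcinoma was checked against defining markers. Krt8 and Krt18, the keratins of simple epithelia, lay between 11.15 and 12.85 on all 6 arrays, and the mesenchymal filament gene Vim between 13.40 and 13.53. The epithelial gene Epcam lay between 5.81 and 6.19, and the mesenchymal cadherin Cdh2 between 3.07 and 3.45. The squamous genes Krt5, Krt14, Krt6a, Krt17 and Trp63 lay between 3.51 and 5.26, and the epithelial cadherin Cdh1 between 3.24 and 3.36. The squamous markers were thus low in NIR and PA alike, at most 5.26 and 5.17. Between NIR and PA, 0 of 28 measured epithelial and squamous genes and 0 of 20 mesenchymal genes passed the test. The leukocyte and macrophage genes Ptprc, Adgre1, Csf1r, C1qa, C1qb and C1qc lay between 3.21 and 5.91, and the endothelial genes Pecam1 and Tek between 3.63 and 4.06. The T cell genes Cd3e and Cd3d lay between 3.75 and 6.03. The B cell gene Cd79a was brighter, at 7.41 to 7.66 in NIR and 7.08 to 7.38 in PA. Cd68 and Tyrobp are left out of the leukocyte and macrophage range above, and Cdh5 is left out of the endothelial range. NIR lay above PA on every array in each of these genes, so the ranges do not show these differences. Among the host cell markers below, Cdh5 is given with its levels, but Cd68 and Tyrobp only by name. In bulk RNA, fewer cells of a type and less RNA per cell cannot be told apart.

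NIR and PA differed in a limited set of genes, mostly in one direction. By limma with Benjamini-Hochberg adjustment at an adjusted p below 0.05, 236 of 18194 genes passed (1.3%), of which 69 were higher in NIR (0.379%) and 167 lower (0.918%). The lower genes also moved further. Their median change was -0.75 on the log2 scale against 0.57 for the higher genes, and 66 of them fell by at least 2-fold against 7 that rose by as much. At an unadjusted p below 0.05 the count was 2201. Over all tested genes the median difference was 0.0046, with 9381 positive and 8812 negative.

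The counts moved with single arrays. Without PA1, PA2 or PA3 the counts were 124, 129 and 121 genes, without IR3 370, and without NIR2 the number of higher genes was 45. Of the 236 genes, 102 passed whichever single array was left out, 88 lower and 14 higher. All 15 of the largest falls were among them, and 8 of the 15 largest rises. Calls given below without a remark on this were not all among the 102. Fosl1, Agrn, Gpnmb, Wnt10b, Casp1 and Rnd3 each lost the call without any of 5 arrays, and Ddit3 and Ackr3 without any of 6. Trp53inp1, Nfil3, Slc14a1, S100a16, Aox1, Ahr, Rhob and Gsn lost it without any of 7, and Map2k1 and Tsr1 without any of 8.

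**Figure D1:**
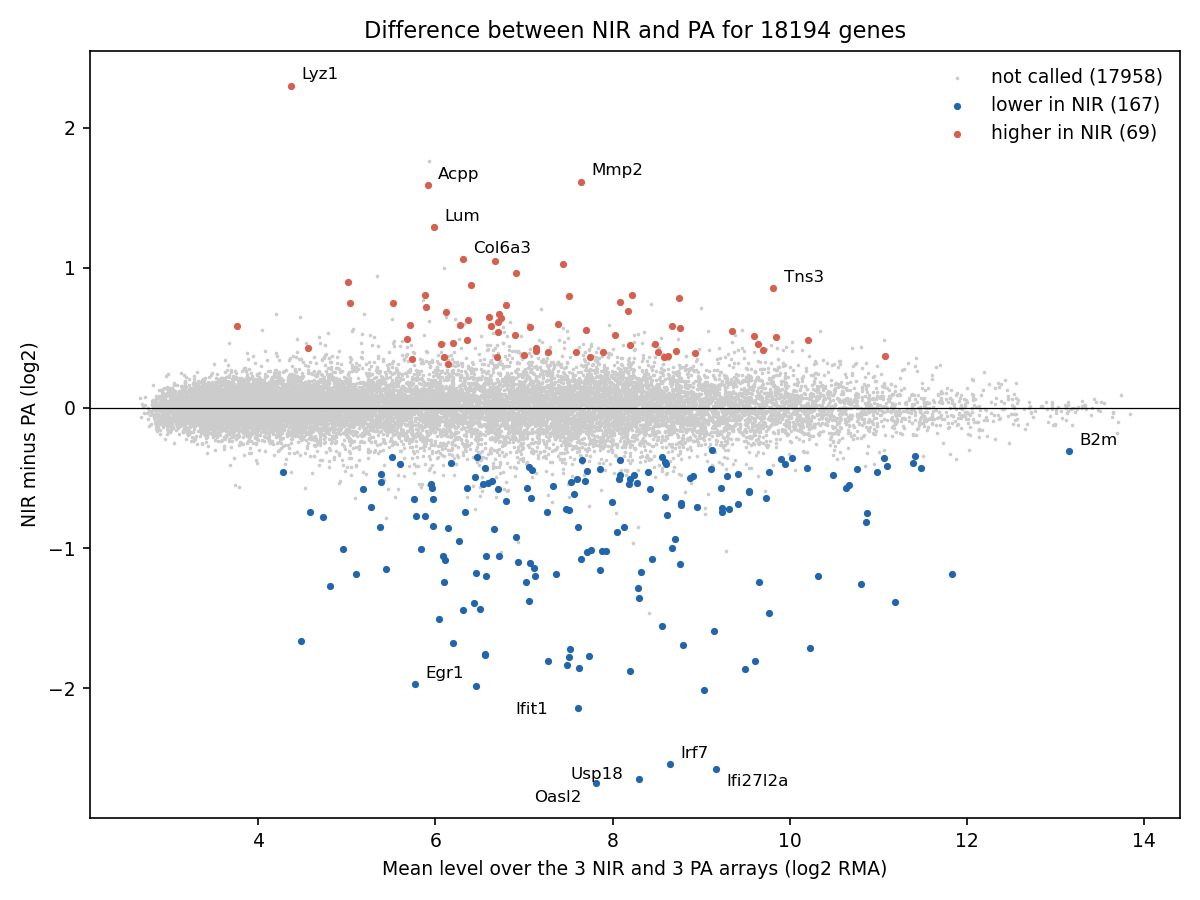
Difference between the NIR and PA means (log2) plotted against the mean level over the 6 arrays (log2 RMA), 1 point a gene. The 167 lower genes (blue) reach -2.68 at Oasl2, and the 69 higher genes (red) reach 2.30 at Lyz1, whose level is low.

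The largest block of lower genes was the interferon-stimulated effectors. Of 54 listed effectors, 49 were measured, and 39 of these were lower in NIR and 0 higher. Their median difference was -1.19, whereas 0.918% of all genes were called lower. In 44 of the 49 all NIR values lay under all PA values, which held for 7.73% of all genes. The mean over the list was 6.85, 7.04 and 7.35 on NIR1, NIR2 and NIR3 and 8.29 to 8.33 on the PA arrays.

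Promoter sequence is shown to let the response element be seen in genes that fell. The genes printed were chosen for holding its core, so that they hold it is no finding. Each line gives bases of the gene's own strand, 5′ to 3′, from RefSeq promoters on GRCm38.p6, with the core in capitals: GAAA and GAAA with any 2 bases between them, or the reverse complement with TTTC and TTTC. Cores can overlap and then form 1 run of capitals. Of 29 lower genes with a core in the 250 bases before an annotated transcript start, 20 have one in a stretch wholly outside the annotated gene, and the 7 largest falls of these are printed.
Ifit1: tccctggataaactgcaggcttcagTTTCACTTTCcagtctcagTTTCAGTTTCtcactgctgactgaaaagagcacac
Irgm2: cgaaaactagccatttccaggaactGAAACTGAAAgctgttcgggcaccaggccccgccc
Gbp7: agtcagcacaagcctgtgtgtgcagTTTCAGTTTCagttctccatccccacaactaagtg
Bst2: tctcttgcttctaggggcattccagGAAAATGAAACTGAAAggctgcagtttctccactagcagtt
Igtp: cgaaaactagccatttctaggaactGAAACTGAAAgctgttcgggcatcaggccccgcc
Oas3: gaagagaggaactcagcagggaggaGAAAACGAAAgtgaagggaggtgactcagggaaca
Gbp2b: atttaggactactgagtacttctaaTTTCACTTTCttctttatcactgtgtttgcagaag

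These stretches lie at chr19:34640760-34640838 (Ifit1, plus strand), chr11:58214888-58214947 (Irgm2, plus strand), chr3:142530258-142530317 (Gbp7, plus strand), chr8:71537562-71537627 (Bst2, minus strand), chr11:58199497-58199555 (Igtp, plus strand), chr5:120777700-120777759 (Oas3, minus strand) and chr3:142594685-142594744 (Gbp2b, plus strand). Ifit1 has cores that start at positions -104 and -85 from the transcript start, and Bst2 has overlapping cores at -130 and -124, while the other 5 genes have 1 core each in the stretch searched. With both strands searched, 29 of 134 lower genes that have a promoter in the table held a core (21.6%), against 1 of 53 higher genes (1.89%) and 452 of 14368 tested genes (3.15%). Among the lower effectors the count was 15 of 33 (45.5%), and among the other lower genes 14 of 101 (13.9%). Those other genes still include lower members of the signalling, sensor and MHC lists, and Stat2 and B2m hold a core. Mndal and Gbp2b, named below as known interferon targets, also count among them and hold a core. The AP-1 site TGACTCA was found in 11 of 134 lower genes (8.21%), 1 of 53 higher genes (1.89%) and 4.73% of tested genes. It was found in 6 of 33 lower effectors (18.2%), while the other lower genes, at 5 of 101 (4.95%), lay near the share of tested genes. The antioxidant response core TGACNNNGC was found in 18 of 134 lower (13.4%), 9 of 53 higher (17%) and 13.4% of tested genes. A match describes letters and not a bound site.

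The largest fall was in Oasl2, a relative of the oligoadenylate synthetases that respond to double-stranded RNA. Its levels were 6.09, 6.34 and 7.01 in NIR1 to NIR3 and 9.20, 9.01 and 9.25 in PA1 to PA3, a 6.39-fold lower level in NIR (log2 difference -2.68, SE 0.22, adjusted p = 0.000107). Usp18, a protease that removes ISG15 from proteins and dampens the interferon receptor, stood at 6.17, 6.92 and 7.84 against 9.69, 9.59 and 9.61, which was 6.28-fold lower (-2.65, SE 0.32, adjusted p = 0.00107). Ifi27l2a, an interferon-induced membrane protein gene, stood at 7.27, 7.82 and 8.54 against 10.35, 10.43 and 10.59, 5.98-fold lower (-2.58, SE 0.24, adjusted p = 0.000185). In all of these, NIR1 was lowest, NIR3 was nearest to PA, and the groups did not overlap.

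Ifit1, whose product binds viral RNA, read 5.87, 6.68 and 7.06 in NIR and 8.69, 8.65 and 8.69 in PA, 4.41-fold lower (-2.14, SE 0.28, adjusted p = 0.00197). Rtp4, an interferon-induced chaperone of membrane receptors, read 7.51, 7.96 and 8.61 against 10.07, 9.94 and 10.10, 4.03-fold lower (-2.01, SE 0.22, adjusted p = 0.000466). Falls of 3.43-fold to 3.67-fold were measured for the immunity-related GTPase Irgm2, the apoptosis-linked Xaf1, the antiviral gene Samd9l, the synthetase Oas1a and Ifit3. Their NIR and PA values did not overlap. A second, dimmer probe set of Xaf1 showed no fall (0.016).

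**Figure D2:**
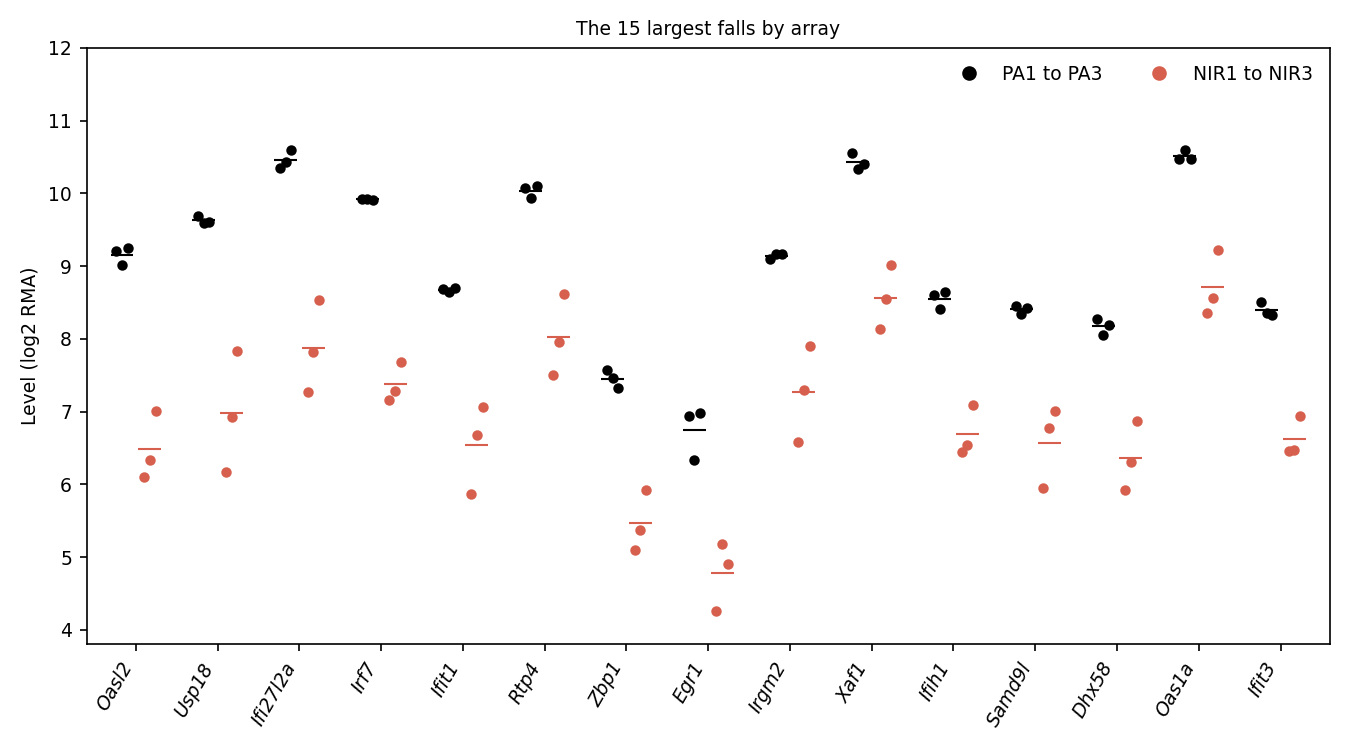
Levels (log2 RMA) of the 15 genes with the largest falls, with each PA array in black and each NIR array in red and bars at the group means. For Irf7 the PA arrays read 9.91 to 9.93 and the NIR arrays 7.16 to 7.69, and no gene shown has overlapping groups.

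The 3 NIR arrays were not equally low in this block. In 26 of the 39 lower effectors (66.7%), NIR1 had the lowest and NIR3 the highest NIR value, an order found in 12.9% of all tested genes. Relative to the PA mean, the median over the 39 was -1.65 in NIR1, -1.46 in NIR2 and -1.14 in NIR3. Among the 111 lower genes outside the interferon and MHC lists, the same order held in 28 (25.2%), and the medians were -0.67, -0.61 and -0.55. The reason for this grading was not tested. Of the 39 lower effectors, 38 passed whichever array was left out, the exception being Trim30a.

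**Figure D3:**
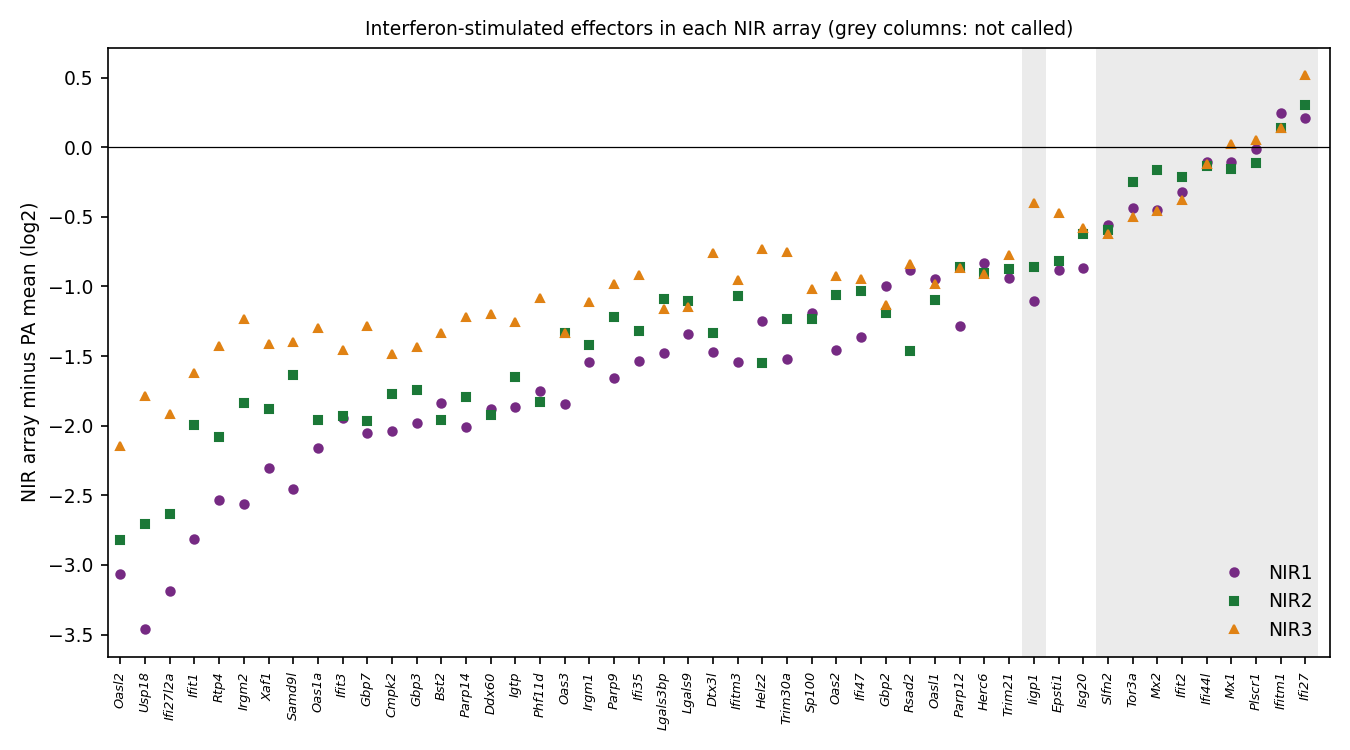
Level of each measured interferon-stimulated effector in NIR1 (circles), NIR2 (squares) and NIR3 (triangles) minus its PA mean (log2), ordered by the mean difference, with uncalled genes in grey columns. The medians over the 39 called genes are -1.65, -1.46 and -1.14, and the right end holds the 2 genes with NIR above PA, Ifitm1 and Ifi27.

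Of the 49 measured effectors, 10 did not pass. Slfn2, a Schlafen family gene, had a difference of -0.59 (adjusted p = 0.0546), the interferon-induced ATPase Tor3a -0.40 (adjusted p = 0.0673), the antiviral genes Ifit2 -0.31 (adjusted p = 0.0875) and Mx2 -0.36 (adjusted p = 0.113), and the GTPase Iigp1 -0.79 (adjusted p = 0.276). In these 5 all NIR values lay under the PA values. Ifi27, a relative of Ifi27l2a, read 10.41, 10.50 and 10.72 in NIR and 10.23, 10.11 and 10.26 in PA (0.34, adjusted p = 0.101). NIR was higher on every array there, the opposite of Ifi27l2a, and the difference did not pass.

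Among the genes that carry the interferon signal, 3 transcription factors fell. Of 12 measured signalling kinases and factors, these 3 were lower and 0 were higher, beside 0.918% and 0.379% of all genes. Irf7, the factor that drives interferon-alpha genes and is itself interferon-induced, had the lowest adjusted p of all genes. It read 7.16, 7.28 and 7.69 in NIR and 9.93, 9.92 and 9.91 in PA, 5.82-fold lower (-2.54, SE 0.13, adjusted p = 5e-06). Irf9, the DNA-binding partner of Stat2, was 2.37-fold lower (-1.25, SE 0.17, adjusted p = 0.00288), and Stat2 was 2.01-fold lower (-1.01, SE 0.16, adjusted p = 0.00814), though Stat2 did not pass without PA2 or without PA3. The uncalled differences were -0.10 for the kinase Tyk2, 0.13 for Jak1, -0.26 for Jak2 and -0.12 for Irf1.

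Of 11 measured interferon ligands and receptors, 0 passed, with a median difference of -0.01. Ifnb1, Ifna1, Ifna2, Ifna4 and Ifng lay between 3.39 and 4.82 on all 6 arrays, near background in both groups. The receptor subunit gene Ifnar1 had a difference of -0.17 and Ifnar2 of -0.11, neither past the test. Il10rb, a subunit shared by interferon-lambda and interleukin receptors, read 7.03, 6.96 and 7.10 in NIR and 7.51, 7.46 and 7.46 in PA (-0.45, adjusted p = 0.103).

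Several sensors of foreign nucleic acid were lower. Of 16 measured sensors and adaptors, 7 were lower and 0 higher, beside 0.918% and 0.379% of all genes, with a median of -0.41. Zbp1, a sensor of Z-form nucleic acid, read 5.10, 5.37 and 5.93 against 7.57, 7.46 and 7.32 (3.95-fold lower, -1.98, SE 0.19, adjusted p = 0.000228). Ifih1, the long RNA sensor MDA5, was 3.63-fold lower (-1.86, SE 0.16, adjusted p = 0.000122) and its relative Dhx58 3.50-fold lower (-1.81, SE 0.18, adjusted p = 0.00024). Ddx58, the sensor RIG-I, was 1.92-fold lower (adjusted p = 0.00137), the DNA-binding Ifi204 2.36-fold and the endosomal RNA receptor Tlr3 1.71-fold. The ubiquitin ligase Trim25 was also lower. The DNA sensor Cgas had a difference of -0.03, its adaptor Sting1 -0.11, the kinase Tbk1 -0.09 and the RNA adaptor Mavs -0.34, none past the test.

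Of 16 measured genes of MHC class I presentation and the immunoproteasome, 7 were lower and 0 higher, with a median of -0.33. Among all genes 0.918% were lower and 0.379% higher. The immunoproteasome subunit Psmb9 read 9.29, 9.47 and 9.48 in NIR and 10.05, 10.07 and 10.04 in PA, 1.56-fold lower (-0.64, SE 0.07, adjusted p = 0.000713). Psmb8 was 1.49-fold lower (adjusted p = 0.00557), as was the peptide transporter Tap1 (adjusted p = 0.0112), the activator subunit Psme1 1.35-fold (adjusted p = 0.00851) and the peptide-trimming Erap1 1.42-fold (adjusted p = 0.0121). The heavy chain H2-D1 read 11.21, 11.19 and 11.33 against 11.57, 11.66 and 11.53, 1.27-fold lower (adjusted p = 0.0452), from a probe set that can bind related transcripts, and it lost its call without any of 7 arrays. B2m, the light chain, read 12.96 to 13.03 against 13.30 to 13.31, 1.24-fold lower (adjusted p = 0.035), and lost its call without any of 8 arrays. The heavy chain H2-K1 had a difference of -0.26 and did not pass. Of the 22 measured subunits of the constitutive proteasome, 0 passed, with a median of 0.00.

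Together the 5 interferon and MHC lists held 104 measured genes, of which 56 were lower and 0 higher, beside 0.918% and 0.379% of all genes. Another 111 lower genes lay outside them. Several of these 111, named after their values were seen, are also known interferon targets. Ube2l6, the enzyme that carries ISG15 to its ligases, read 5.42, 5.57 and 6.04 in NIR and 7.48, 7.80 and 7.03 in PA (3.38-fold lower, adjusted p = 0.000341). The HIN-domain genes Mndal and Ifi202b were 3.22-fold and 2.76-fold lower, the surface protein gene Ly6e 2.61-fold, the guanylate-binding protein Gbp2b 2.70-fold, the RNA editor Adar 1.80-fold, the tryptophan-degrading Ido1 1.80-fold, Trim14 2.01-fold, Nmi 1.68-fold and Rnf213 1.64-fold. The probe sets of Mndal, Ifi202b and Ly6e can bind related transcripts. All of these passed whichever array was left out. A noncoding RNA known to be induced by interferon, AW112010, also named after its value was seen, went the other way. It read 5.44, 5.47 and 5.48 in NIR and 4.62, 4.32 and 4.74 in PA (1.87-fold higher, 0.90, SE 0.15, adjusted p = 0.0118) and lost its call without either of 2 arrays.

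Some lower genes were neighbours in the order of tested genes along the genome. By that order on GRCm38.p6, 28 of the 167 lower genes formed 12 runs of neighbours that were all called lower. Untested genes were left out of the order and can lie between neighbours. The longest run had 4 genes, Gbp7, Gbp3, Gbp2b and Gbp2. Parp14, Dtx3l and Parp9 formed a run of 3, as did Psmb9, Tap1 and Psmb8. The paired neighbours included Oasl2 with Oasl1, Oas2 with Oas3, Rsad2 with Cmpk2 and Igtp with Irgm2. Among the higher genes, Dcn lay beside Lum and Rcc1 beside Snhg3. Probe sets of related neighbours can bind each other's transcripts.

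Outside the interferon response, the largest fall was in Egr1, an immediate early transcription factor induced by growth factors and ERK signalling. It read 4.26, 5.18 and 4.90 in NIR and 6.94, 6.34 and 6.97 in PA, 3.92-fold lower (-1.97, SE 0.23, adjusted p = 0.000736), and passed whichever array was left out. The NIR values were near background. Of 23 measured immediate early genes, 1 was lower (Egr1) and 1 higher, with a median of -0.09. The higher one was Fosl1, an AP-1 subunit, at 9.94 to 10.36 against 9.55 to 9.62 (1.42-fold higher, adjusted p = 0.0365). Of 14 ERK feedback genes 0 passed. The ERK phosphatase gene Dusp6 read 9.14, 9.41 and 9.49 against 9.78, 9.79 and 9.74 (-0.43, adjusted p = 0.0639) and Dusp1 had a difference of -0.75 (adjusted p = 0.0996). Both lay under PA on every NIR array without passing. Map2k1, the kinase directly above ERK, was named after its value was seen and was 1.23-fold lower (-0.30, adjusted p = 0.0413).

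Of the BMP-responsive Id genes, Id1 and Id3 were called lower. Id1, an inhibitor of basic helix-loop-helix factors, read 7.08, 7.12 and 7.10 in NIR and 8.14, 8.25 and 8.15 in PA, 2.11-fold lower (-1.08, SE 0.09, adjusted p = 0.000116). Id3 was 1.61-fold lower (-0.68, SE 0.13, adjusted p = 0.0291) and lost its call without any of 5 arrays. Ltbp1, which tethers latent TGF-beta in the matrix, was 1.47-fold higher (0.56, SE 0.07, adjusted p = 0.00192), although a dimmer probe set of it read -0.092. Of 21 measured genes of the list, these were the 3 that passed. The BMP antagonist Grem1, named after its value was seen, read 7.59, 7.21 and 7.25 against 6.67, 6.83 and 6.82 (1.49-fold higher, adjusted p = 0.0209).

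Ccn1, a secreted matricellular protein that binds integrins, was the single one of 13 measured CCN and matricellular genes to pass (2.04-fold lower, -1.03, SE 0.08, adjusted p = 7.2e-05). Ccn1 read 7.31, 7.02 and 7.26 in NIR and 8.22, 8.22 and 8.24 in PA, from a probe set that can bind related transcripts. It is also a target of YAP and TEAD factors, and of 16 genes of that list it was the lower one, while the factor Tead1 itself was 1.37-fold higher (adjusted p = 0.0102). Of 14 measured integrins, 0 passed and none had NIR and PA values that did not overlap. The receptor Fzd7 was the 1 of 23 Wnt genes to pass (1.44-fold lower, adjusted p = 0.0156). The ligand Wnt10b, named after its value was seen, was 1.37-fold higher (adjusted p = 0.0396).

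Mmp2, Lum and Col6a3, all genes of the extracellular matrix, were among the largest rises. Mmp2, the gelatinase that cleaves basement membrane collagen, read 9.29, 8.34 and 7.72 in NIR and 6.76, 6.85 and 6.91 in PA, 3.06-fold higher (1.61, SE 0.34, adjusted p = 0.047). The NIR arrays differed widely among themselves, and the call was lost without any of 7 arrays. Lum, a small leucine-rich proteoglycan of collagen fibrils, read 6.97, 6.89 and 6.02 against 5.33, 5.27 and 5.40 (2.45-fold higher, 1.29, SE 0.24, adjusted p = 0.0241), and lost its call without any of 5 arrays. Its relative Dcn read 8.93, 8.61 and 8.33 against 7.78, 7.66 and 8.01 (1.75-fold higher, 0.81, SE 0.16, adjusted p = 0.0391). Dcn lost its call without any of 7 arrays, and its dimmer probe set read -0.065. In Mmp2, Lum and Dcn, NIR3 was the NIR array nearest to PA.

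Col6a3, a chain of the microfibril collagen VI, was steadier, at 6.60, 7.13 and 6.78 against 5.76, 5.85 and 5.73 (2.08-fold higher, 1.06, SE 0.11, adjusted p = 0.000363), and passed whichever array was left out. Its partner chains Col6a1 and Col6a2 had differences of 0.38 and 0.35 and did not pass. Of 24 measured collagens and modifying enzymes, 1 was higher and 0 lower (median 0.06), beside 0.379% and 0.918% of all genes. Of 24 proteoglycans, laminins and fibronectin, 2 were higher, and the basement membrane proteoglycan Agrn was 1.45-fold lower (adjusted p = 0.0265). Mmp2 was the 1 of 22 matrix proteases and inhibitors to pass.

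The matrix rises were read beside host cell markers, since lines taken from tumours can hold cells of the animal. Of 14 measured fibroblast markers, 2 were higher (Dcn and Lum) and 0 lower, beside 0.379% and 0.918% of all genes. In 4 all NIR values lay above PA, which held for 7.82% of all genes. The list mean was 6.97, 6.97 and 6.68 in NIR1 to NIR3 and 6.43 to 6.62 in PA. Dcn and Lum are also matrix rises given above, so their calls and their part of this mean are not separate from those rises. Dpt, a dermal matrix protein gene in that list, read 7.62, 6.60 and 6.22 in NIR and 5.00, 4.80 and 5.36 in PA (1.76, SE 0.46, adjusted p = 0.106). The defining fibroblast genes Col1a2, Col3a1 and Pdgfra were already at 9.05 to 11.50 in PA and lay at 9.20 to 11.75 in NIR. The part of fibroblasts in the matrix rises was not tested.

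Of 18 measured macrophage and myeloid markers, 2 were higher in NIR and 0 lower, beside 0.379% and 0.918% of all genes. Lyz1, a lysozyme, read 5.50, 5.81 and 5.26 in NIR and 3.33, 3.17 and 3.17 in PA, the largest rise among the tested genes (4.92-fold, 2.30, SE 0.46, adjusted p = 0.0362). Its probe set can bind related transcripts, PA was near background, and the call was lost without any 1 of the 6 arrays. The standard deviation of Lyz1 was 0.28 in NIR, 0.09 in PA and 1.32 in IR, and all of these enter its SE. The related Lyz2 read 5.60, 6.32 and 5.50 against 4.63, 4.95 and 5.02 (adjusted p = 0.52). The mannose receptor Mrc1 read 5.57, 5.36 and 5.29 against 4.53, 4.82 and 4.62 (1.68-fold higher, adjusted p = 0.0156).

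NIR was above PA on every array in 5 of these 18 markers, Lyz1, Lyz2, Mrc1, Cd68 and Tyrobp, beside 7.82% of all genes. A positive difference was found in 12 of the 18, beside 9381 of 18194 tested genes. The list mean was 4.66 to 4.79 over the NIR arrays and 4.40 to 4.50 over the PA arrays. The pan-leukocyte gene Ptprc had a difference of -0.02, the macrophage gene Adgre1 of 0.00 and the complement genes C1qb and C1qc of -0.01 and -0.05, all near background in both groups. Whether a few myeloid cells contributed was not tested. Of 12 lymphocyte, 12 endothelial and 11 muscle, fat and red cell markers, 0 passed in each list. The endothelial cadherin Cdh5 read 6.65, 6.67 and 6.31 against 5.96, 5.81 and 5.95 (0.64, adjusted p = 0.063).

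Among the other large rises, Acpp, an acid phosphatase that also dephosphorylates extracellular nucleotides, read 7.36, 6.17 and 6.59 in NIR and 5.16, 5.23 and 4.97 in PA (3.01-fold higher, 1.59, SE 0.27, adjusted p = 0.0118). Its call was lost without PA1, PA2 or PA3, and its 2 dimmer probe sets read 0.20 and 0.44. Lrrc17, a secreted leucine-rich repeat protein gene, had closely grouped values, at 7.44, 7.42 and 7.32 against 6.43, 6.43 and 6.42 (1.95-fold higher, 0.96, SE 0.06, adjusted p = 3.9e-05). Tns3, a tensin of focal adhesions, read 10.21, 10.46 and 10.05 against 9.32, 9.35 and 9.48 (1.81-fold higher, adjusted p = 0.00314). Efnb2, a membrane ligand of Eph receptors, read 9.18, 9.13 and 9.11 against 8.47, 8.36 and 8.24 (1.72-fold higher, adjusted p = 0.000201), and its relative Efnb1 was 1.38-fold higher (adjusted p = 0.0391; lost without any of 7 arrays, with a dimmer probe set at -0.055). These were the 2 of 28 guidance genes that passed.

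The ankyrin repeat gene Ankrd33b was 2.03-fold higher, the ubiquitin ligase Pdzrn3 2.06-fold, the receptor Crhr1 1.83-fold, Plxdc1 1.75-fold, the pentraxin Nptx1 1.74-fold and the creatine transporter Slc6a8 1.69-fold. Of these, Pdzrn3 and Plxdc1 each lost the call without any of 7 arrays, and a dimmer probe set of Pdzrn3 read -0.078. Smaller rises named after their values were seen were in the podosome scaffold Sh3pxd2a (1.61-fold, adjusted p = 0.0004), the integrin-linked Parvb (1.56-fold, adjusted p = 0.0227) and the Cdc42 effector Cdc42ep5 (1.51-fold, adjusted p = 0.00671). Dimmer probe sets of Sh3pxd2a and Parvb read -0.0077 and -0.029. Among lower genes named in the same way, the small GTPase genes Rhob and Rnd3 and the actin-severing Gsn were lower by 1.35-fold, 1.60-fold and 1.37-fold.

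**Figure D4:**
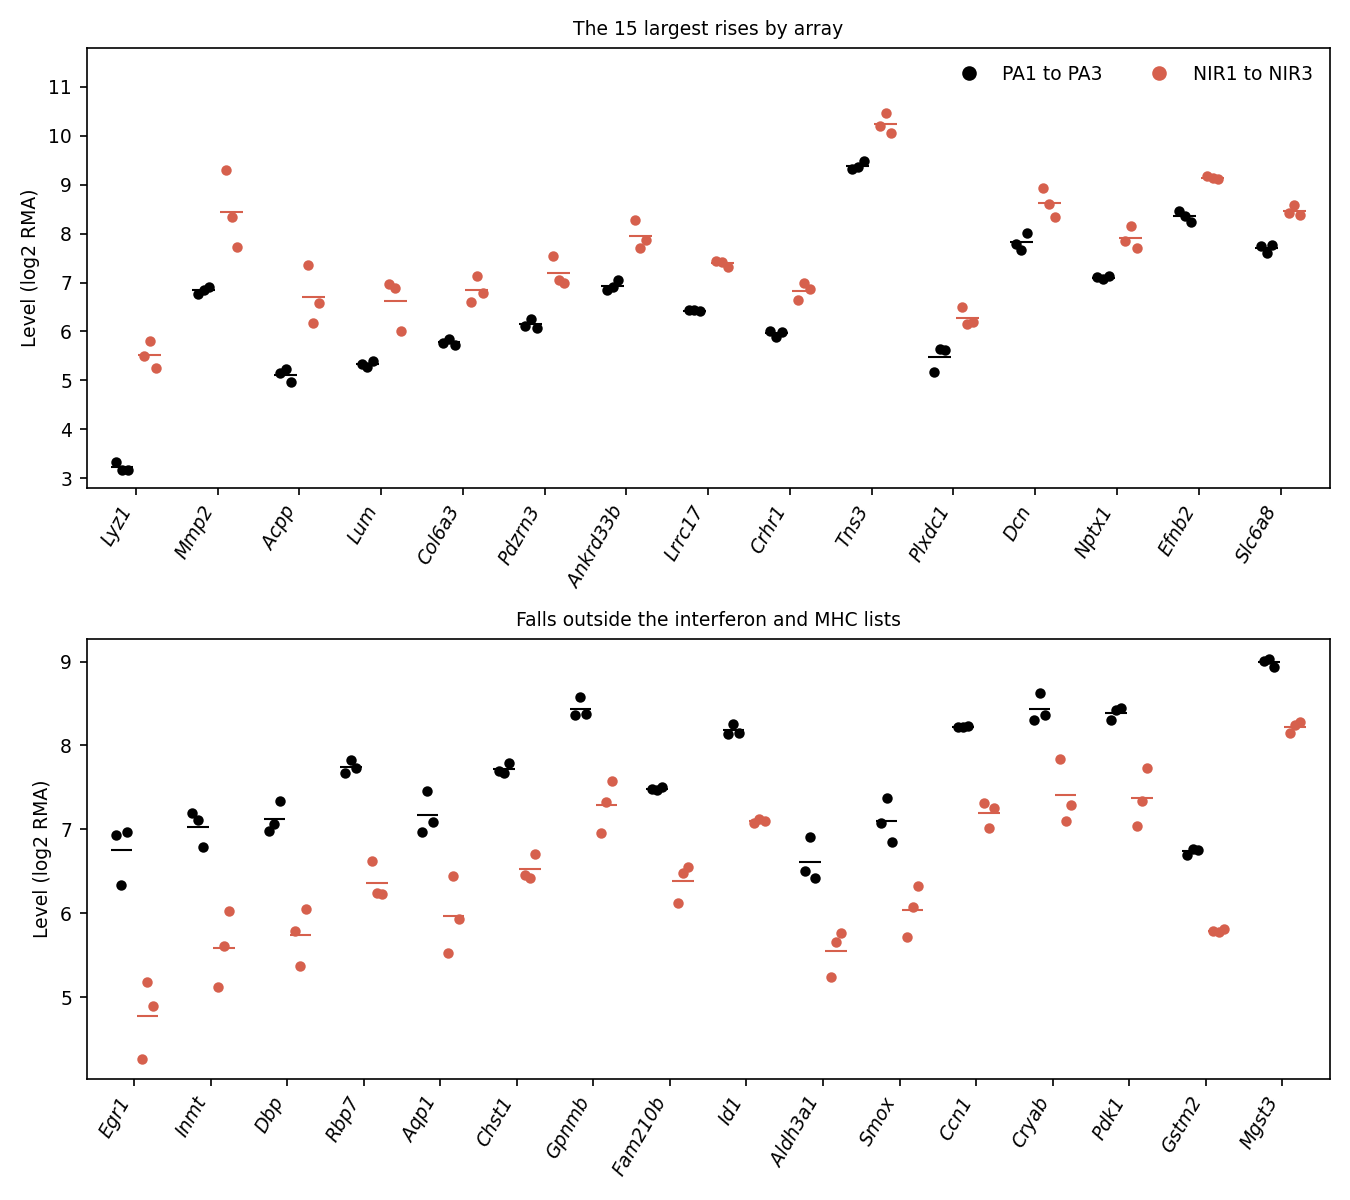
Levels (log2 RMA) on each PA array (black) and NIR array (red), with bars at the group means, for the 15 largest rises (upper panel) and for 16 lower genes outside the interferon and MHC lists (lower panel). Mmp2 spans 7.72 to 9.29 within NIR, while Lrrc17 stays within 7.32 to 7.44, and no gene shown has overlapping groups.

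Cytokine genes changed singly. Of 30 measured chemokines and cytokines, Il23a, a subunit of interleukin-23, was 1.50-fold higher (adjusted p = 0.0149) and the scavenging chemokine receptor Ackr3 1.53-fold lower (adjusted p = 0.0323). The monocyte attractant Ccl7 read 9.85, 9.18 and 9.03 in NIR and 8.65, 8.66 and 8.62 in PA and did not pass (0.71, adjusted p = 0.234). Il15 read 6.22, 6.19 and 6.27 against 6.82, 6.88 and 6.67 (-0.56, adjusted p = 0.096). Receptor genes named after their values were seen were Il1rap, the co-receptor of interleukin-1 (1.66-fold higher, adjusted p = 0.000932; 2 dimmer probe sets read -0.12 and -0.18), and Il4ra (1.45-fold higher, adjusted p = 0.0201). The complement gene C2 was 1.56-fold lower (adjusted p = 0.00106), and Casp1, the caspase that matures interleukin-1, was 1.48-fold lower (adjusted p = 0.0287). Of 11 S100 genes, S100a16 was 1.43-fold higher (adjusted p = 0.0427). Of 18 NF-kB pathway and target genes 0 passed, with a median of 0.04.

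Genes induced by low oxygen had mostly negative differences. Of 26 measured HIF targets, 3 were lower and 0 higher, beside 0.918% and 0.379% of all genes. A negative difference was found in 21, beside 8812 of 18194 tested genes. In 10 all NIR values lay under PA, which held for 7.73% of all genes, and the list median was -0.17. Bhlhe40, a repressor of the clock and of differentiation genes, read at most 7.10 in NIR and 7.58, 7.57 and 7.67 in PA (1.47-fold lower, adjusted p = 0.00967). Pdk1, which holds pyruvate out of the mitochondrial cycle, read 7.04, 7.34 and 7.73 against 8.30, 8.42 and 8.45 (2.03-fold lower, -1.02, SE 0.22, adjusted p = 0.047) and the adenylate kinase Ak4 was 1.44-fold lower (adjusted p = 0.047). Both were lost without any of 7 arrays, and dimmer probe sets read 0.029 for Pdk1 and 0.13 and 0.055 for Ak4. Bnip3, a mitophagy receptor, read 8.53, 8.98 and 8.79 against 9.71, 9.40 and 10.26 (-1.02, adjusted p = 0.0658), and Adm, encoding adrenomedullin, had -0.59 (adjusted p = 0.0606). The cyclin gene Ccng2 had -0.96 (adjusted p = 0.197). The PA arrays themselves differed widely in Bnip3.

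Of 17 measured glycolytic genes and 33 respiratory chain genes, 0 passed. Their medians were -0.10 and -0.08, and 14 and 27 of their genes had a negative difference, beside 8812 of 18194 tested genes.

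Some detoxification genes fell. Of 19 measured glutathione S-transferases, 2 were lower and 0 higher, beside 0.918% and 0.379% of all genes. Gstm2 read 5.79, 5.77 and 5.81 in NIR and 6.69, 6.76 and 6.76 in PA (1.93-fold lower, -0.95, SE 0.09, adjusted p = 0.00026), and Mgst3 8.15, 8.25 and 8.28 against 9.01, 9.03 and 8.94 (1.70-fold lower, -0.77, SE 0.07, adjusted p = 0.000186). The groups did not overlap in either. Mgst1 had a difference of -0.70 and did not pass (adjusted p = 0.122). Of 20 measured NRF2-controlled genes, the oxidase Aox1 was lower (1.38-fold, adjusted p = 0.0452) and 0 were higher, although 8 had all NIR values above PA, which held for 7.82% of all genes, the drug exporter Abcc1 among them (0.38, adjusted p = 0.0544). The list median was 0.13.

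Other metabolic genes were named after their values were seen. Inmt, an amine methyltransferase, read 5.12, 5.61 and 6.03 against 7.20, 7.11 and 6.78 (2.72-fold lower, adjusted p = 0.0391, lost without any of 6 arrays). The retinol-binding Rbp7 was 2.60-fold lower (adjusted p = 0.000148), the sulfotransferase Chst1 2.29-fold (adjusted p = 0.00016), the aldehyde dehydrogenase Aldh3a1 2.08-fold (adjusted p = 0.00394), the spermine oxidase Smox 2.08-fold (adjusted p = 0.0039), the cytosolic Idh1 1.51-fold (adjusted p = 0.00219), the quinone reductase Nqo2 1.39-fold and the epoxide hydrolase Ephx1 1.40-fold. Ahr, the receptor that induces several enzymes of this kind, was 1.29-fold lower (adjusted p = 0.0294). In the opposite direction, the methyltransferase Nnmt read 6.29, 6.25 and 6.24 against 5.53, 5.48 and 5.61 (1.65-fold higher, adjusted p = 0.000189). Further falls were in Fam210b (2.15-fold), the glycoprotein Gpnmb (2.23-fold) and Plac8 (1.76-fold).

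Dbp, a transcription factor at the output of the circadian clock, read 5.79, 5.37 and 6.06 in NIR and 6.98, 7.06 and 7.34 in PA (2.62-fold lower, -1.39, SE 0.20, adjusted p = 0.00453), from a probe set that can bind related transcripts. Nfil3, which opposes Dbp at the same DNA sites, was 1.29-fold higher (adjusted p = 0.0391). With Bhlhe40 these were the 3 of 18 clock genes that passed. The core clock genes Per2, Cry1, Clock and Nr1d1 had differences of -0.06, -0.14, 0.03 and -0.04, and harvest times are not given in the labels. The water channel Aqp1 read 5.53, 6.45 and 5.93 against 6.97, 7.46 and 7.09 (2.30-fold lower, adjusted p = 0.00859), while the urea transporter Slc14a1 was 1.43-fold higher (adjusted p = 0.0463).

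Stress genes moved singly. Cryab, a small heat shock chaperone, read 7.84, 7.10 and 7.29 in NIR and 8.31, 8.62 and 8.37 in PA (2.03-fold lower, -1.02, SE 0.16, adjusted p = 0.00671), the 1 of 17 heat shock genes to pass. Ddit3, the stress factor CHOP, was 1.50-fold higher (adjusted p = 0.0262), the 1 of 24 genes of the integrated stress response and ER chaperones. The p53 target Trp53inp1 was 1.57-fold lower (adjusted p = 0.0347), the 1 of 21 p53 targets. Of 23 apoptosis regulators, Casp1 passed, and 20 had a negative difference, beside 8812 of 18194 tested genes. Casp8 read 8.32, 7.90 and 8.28 against 8.61, 8.62 and 8.65 (-0.46, adjusted p = 0.063).

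Ribosome biogenesis genes had mostly positive differences. Of 26 measured genes, 2 were higher and 0 lower, beside 0.379% and 0.918% of all genes. A positive difference was found in 21, beside 9381 of 18194 tested genes. In 15 all NIR values lay above PA, which held for 7.82% of all genes, and the list median was 0.22. Pop1, a protein of RNase P and RNase MRP, read 6.95, 6.85 and 6.97 in NIR and 6.31, 6.39 and 6.13 in PA (1.57-fold higher, 0.65, SE 0.11, adjusted p = 0.0112), and the snoRNA host Snhg3 was 1.60-fold higher (adjusted p = 0.013). The processing factor Rrp12 had a difference of 0.60 (adjusted p = 0.103), the pseudouridine synthase Dkc1 0.41 (adjusted p = 0.113) and the nucleolar Nolc1 0.40 (adjusted p = 0.168). Tsr1, a ribosome maturation factor named after its value was seen, was 1.37-fold higher (adjusted p = 0.0492). Among 19 aminoacyl-tRNA synthetases, 0 passed, and 18 had a positive difference (median 0.12), beside 9381 of 18194 tested genes. The cytosolic ribosomal proteins had a median of 0.00 over 20 measured genes, with 0 called.

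Proliferation genes showed no called difference. Of 29 measured mitosis genes and 28 replication and repair genes, 0 passed, with medians of 0.01 and -0.01. The spindle checkpoint kinase gene Bub1 read 9.13, 9.08 and 9.14 against 9.42, 9.40 and 9.33 (-0.27, adjusted p = 0.0875). Growth factor receptors were also without a call. The receptor Met had a difference of 0.30 (adjusted p = 0.0684), and the EGF family ligand Hbegf read 7.71, 6.89 and 6.86 against 6.54, 6.58 and 6.49 (0.61, adjusted p = 0.181). The 12 measured Notch pathway genes, 22 cholesterol synthesis genes, 24 lipid metabolism genes, 19 lysosomal genes and 25 mitochondrial ribosomal proteins likewise had 0 called. In all, 28 of the 60 gene lists had a called member, and the lists together held 93 of the 236 called genes.

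**Figure D5:**
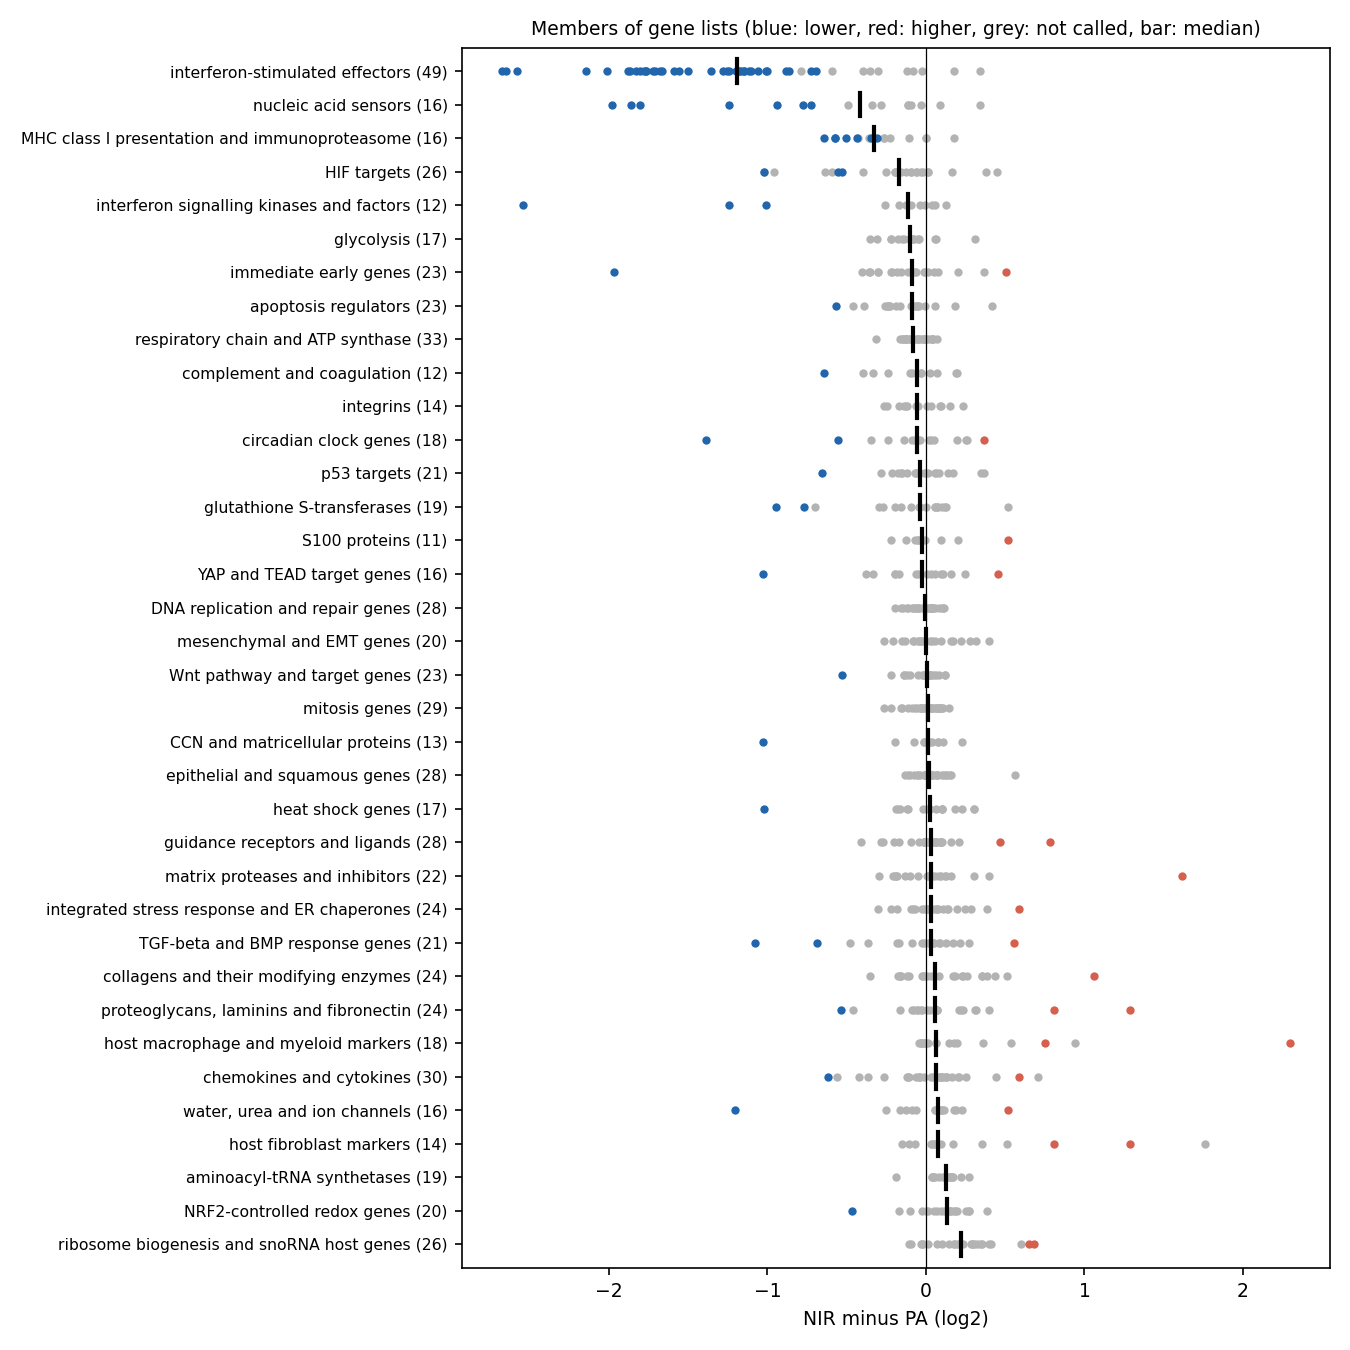
Difference between NIR and PA (log2) for each measured member of 36 of the 60 gene lists, with the number measured in brackets, lower genes in blue, higher in red, uncalled in grey and the list median as a bar. The interferon-stimulated effectors have a median of -1.19, the HIF targets -0.17 and the ribosome biogenesis genes 0.22.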

How the data were processed

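Total RNA was hybridised to single-channel Affymetrix expression arrays, 3 for each of NIR, PA and IR. The values are log2 expression as deposited by the authors, computed with RMA per the submitters' processing notes; the RMA software version, background and normalization settings are not given in the sources used here. Of 45100 probe sets (values 2.47 to 14.0), 34944 had 1 gene symbol, 932 several and 9160 none by the platform annotation, and 64 were controls; 34740 of the single-gene ones matched RefSeq. Each of 18194 genes was read by its probe set of highest mean across the arrays (9009 had several). All 9 arrays entered 1 limma fit (version 3.58.1, R 4.3.3) with a mean per group, and moderated p-values of NIR minus PA were adjusted by Benjamini-Hochberg over all genes, with 0.05 as the threshold. Probe sets marked _x or _s were noted as able to bind several transcripts. Beside the genes remarked on above, such probe sets read Tlr3, Trim25, C2, Idh1, Ak4, Ackr3, Gsn and Tsr1.

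Genes were named by rule: the 15 largest falls and 15 largest rises among called genes with NIR and PA values that did not overlap (predicted genes, unnamed transcripts and antigen receptor segments left out), up to 6 called members in each direction, or every called one where they were 5 or fewer, of each of 60 gene lists (1107 of 1198 members measured), up to 2 members of a list with none called, and Ccn1, Itgb5 and Itgav, which the published study followed. Other genes were named after their values were seen. The members and lists were chosen with earlier results of these data known. Lists are described by counts and medians, with no test. Promoters came from RefSeq (GRCm38.p6). The fit was tested on simulated data.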

Additional observations from a re-analysis of the deposited data

How the results depend on the processing

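Against 236 genes (69 higher, 167 lower), array weights gave 382 called genes and 136 higher, an adjusted p below 0.01 gave 108, 16 and 92, and a change of at least 2-fold 73, 7 and 66. With 1 array left out, called genes ranged from 121 to 370, higher genes from 21 to 122 and lower genes from 95 to 248. The other alternatives kept all 3 counts within 1.5 times. Called genes were 277 with trend and robust variance, 217 with the NIR and PA arrays alone and 222 with probe sets averaged per gene. They were 216 with median centring, 252 with quantile normalization, 278 among genes above the median probe set and 221 with no _x or _s probe sets. Testing every probe set gave 292 called probe sets, which is not a count of genes. With the replicate number as a block, 203 genes were called, 48 higher and 155 lower, 174 of them among the 236. Deviations of same-numbered NIR and PA arrays from their group means had correlations of 0.066, -0.20 and -0.18. The labels do not say whether the numbers pair the arrays, and these values alone cannot settle it. The 39 lower effectors numbered 38 to 43 in all alternatives apart from the 2-fold minimum, which left 35. Of 127 called genes examined singly, 0 reversed outside other probe sets, and 75 kept their call in all settings apart from left-out arrays and other probe sets. Of 121 other probe sets for 74 of these genes, 26 were called alike, 77 shared the direction without a call and 18 reversed: Pdzrn3 -0.078, Dcn -0.065, Xaf1 0.016, Ddx58 0.063, Tap1 0.017, Agrn 0.071, Ltbp1 -0.092, Efnb1 -0.055, Pdk1 0.029, Ak4 0.13 and 0.055, Rnf213 0.15, Il1rap -0.12 and -0.18, Sh3pxd2a -0.0077, Parvb -0.029, Gsn 0.036 and Pml 0.054. Of uncalled genes, Itgb5 (0.15) ranged from -0.080 (without NIR2) to 0.27 with 1 array left out and read -0.017 and -0.054 in other probe sets, and Itgav (0.09) -0.095 and -0.031. The cause of these shifts was not tested. Groups of 3 arrays and levels near background limit what small differences can be told.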
